A study of Mus musculus with 60 samples.

Results

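The 4 genes that encode the subunits of calcium/calmodulin-dependent protein kinase II (CaM kinase II), Camk2a, Camk2b, Camk2d, and Camk2g, were followed together with the genes of its 2 inhibitor proteins, Camk2n1 and Camk2n2, and with Camk4, a related kinase. These 7 genes were chosen by name, with earlier results of these data known, out of 39756 genes measured in mouse cortex and cortical cultures. Their 114 transcripts were taken out of 122459 measured in mouse hippocampus. All 7 were above 0 in all 48 cortical libraries and passed the filter on low values there, and all 7 also passed the filter on low counts in hippocampus. CaM kinase II is a large ring of subunits that calcium-loaded calmodulin switches on at the synapse, after which each subunit can phosphorylate its neighbor and stay active once calcium has fallen. It is among the most abundant proteins of excitatory synapses and is required for long-term potentiation, and its alpha and beta subunits, encoded by Camk2a and Camk2b, make up most of it in forebrain neurons. The inhibitor proteins bind the active kinase, and Camk4 encodes CaM kinase IV, a nuclear kinase that phosphorylates the transcription factor CREB.

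The cortical libraries were 46 primary cultures from wild type mouse embryos and 2 libraries of E15 cortex, which is day 0 of the series. The cultures received paxillin siRNA or scrambled (SC) siRNA, alone or with BDNF at 20 ng/ml, a growth factor that acts through the receptor TrkB, and were collected after 3, 5, or 10 days in vitro (DIV). Without BDNF, the SC siRNA groups held 3, 4, and 3 libraries at DIV3, DIV5, and DIV10 and the paxillin siRNA groups 5, 6, and 4; with BDNF, they held 3, 4, and 3 and 4, 5, and 2. Hippocampus was taken at P10, P15, and P21, with 2 libraries per age and genotype, from Nestin-CreERT2; Paxillin fl/S119A mice, called S119A here, and from controls. In the S119A mice, a tamoxifen-induced Cre under the nestin promoter leaves paxillin in which a serine is replaced by alanine, and cells without Cre activity keep the floxed allele. The labels call the controls wild type, the study's appendix describes them as PXN fl/S119A littermates, and the labels do not say whether each hippocampus library is 1 mouse, so p-values measure the spread between libraries.

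The cortical values are transcripts per 1000000 (TPM), which are corrected for length and sum to the same total in every library, so the values themselves do not carry the depth of each library. Pxn, the target of the siRNA, passed as lower in the libraries labelled paxillin siRNA only at DIV5 without BDNF (log2 difference -0.67, adjusted p = 0.0186 with limma), at 8.43 to 9.83 TPM against 12.4 to 19.9 TPM. At DIV5 with BDNF the log2 difference was -0.42 (adjusted p = 0.207 with limma), and the groups overlapped, at 8.74 to 13.8 TPM against 10.0 to 19.0 TPM. The libraries numbered 10 and 11 all carry paxillin siRNA. The hippocampus libraries held between 3162777 and 5687908 long reads. At P15 and P21 the libraries numbered 2 stood apart from those numbered 1, with 27.6% to 34.5% of 24751 transcripts more than 2-fold different, against 4.58% and 5.07% at P10. The changes with age and the differences over all ages are therefore also given without these 4 libraries, in a fit with additive age and genotype; comparisons within a genotype, or between genotypes at P15 or P21, were not refitted without them, because 1 library would be left on a side.

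Camk2n1 lies at chr4:138454314-138460123 on the plus strand and Camk2n2 at chr16:20619215-20621287 on the minus strand of GRCm38, each with 2 exons. Their coding sequences are shown because Camk2n1 rose with days in the cultures while Camk2n2 did not pass the test. The difference between their changes was not tested. They are 237 and 240 bases long and were identical at 71.3% of 237 aligned bases, with the bases that differ in capitals. The Camk2n1 bases come from chr4:138455186-138455351 and chr4:138456718-138456788 and the Camk2n2 bases from chr16:20621026-20621194 and chr16:20620173-20620243.
Camk2n1: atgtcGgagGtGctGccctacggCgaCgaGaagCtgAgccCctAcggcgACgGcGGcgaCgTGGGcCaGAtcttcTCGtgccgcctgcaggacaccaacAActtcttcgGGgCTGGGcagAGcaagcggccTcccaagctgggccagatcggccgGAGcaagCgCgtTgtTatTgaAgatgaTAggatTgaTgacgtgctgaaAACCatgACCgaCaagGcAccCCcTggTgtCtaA
Camk2n2: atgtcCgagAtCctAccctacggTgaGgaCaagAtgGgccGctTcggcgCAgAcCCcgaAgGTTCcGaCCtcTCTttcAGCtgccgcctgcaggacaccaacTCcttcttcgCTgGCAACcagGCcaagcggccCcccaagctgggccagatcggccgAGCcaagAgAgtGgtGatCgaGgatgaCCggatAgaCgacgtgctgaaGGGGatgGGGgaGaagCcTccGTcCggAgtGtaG
Of the 78 codons of Camk2n1, 53 encode the same residue as in Camk2n2, and the longest run without a difference in residue is 15 codons, from codon 54 to codon 68 of Camk2n1.

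Camk2b lies at chr11:5969644-6066362 (minus strand, 21 exons), Camk2d at chr3:126596302-126846326 (plus strand, 20 exons), and Camk2g at chr14:20734875-20794088 (minus strand, 21 exons). The coding sequences of the subunits were 76.3% to 79.6% identical in pairs. The stretch of 102 bases that holds the codon of the threonine phosphorylated between neighbors (capitals) and the calmodulin-binding part is shown for Camk2b, Camk2d, and Camk2g, because it is the switch that all subunits share.
Camk2b: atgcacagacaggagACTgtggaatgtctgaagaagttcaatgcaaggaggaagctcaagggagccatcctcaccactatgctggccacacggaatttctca
Camk2d: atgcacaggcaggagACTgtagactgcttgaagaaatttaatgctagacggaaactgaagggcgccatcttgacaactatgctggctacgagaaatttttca
Camk2g: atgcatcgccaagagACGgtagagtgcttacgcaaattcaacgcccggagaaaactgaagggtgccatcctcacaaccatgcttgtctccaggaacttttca
These bases come from chr11:5988955-5989014 and chr11:5988102-5988143 (Camk2b), chr3:126797726-126797785 and chr3:126798238-126798279 (Camk2d), and chr14:20760397-20760456 and chr14:20760145-20760186 (Camk2g). The threonine codon is codon 287 in these 3 subunits and codon 286 in Camk2a. Of the 34 codons, Camk2a shares the encoded residue with Camk2d at 34, with Camk2b at 33, and with Camk2g at 30, and Camk2b and Camk2d share it at 33.

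The first question was how the 7 genes change as cultured cortical neurons mature. Between DIV3 and DIV10 in SC siRNA cultures, Camk2a, Camk2d, Camk2n1, and Camk4 rose, while Camk2b, Camk2g, and Camk2n2 did not pass the test. These 4 of 7 genes stand beside 35.2% of the 14250 genes tested that passed in either direction. Camk2a rose 16.5-fold and Camk2n1 9.62-fold on the log2(TPM + 1) scale, which understates the change of low genes such as Camk2d. Since these are bulk cultures, fewer cells of a type and less RNA per cell cannot be told apart.

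Camk2a, whose protein is the subunit most tied to potentiation, was at 17.4, 13.2, and 20.6 TPM in the 3 SC siRNA libraries at DIV3. At DIV5 its level was 142, 78.7, 45.4, and 28.6 TPM in libraries 1, 2, 3, and 4, and at DIV10 it was 476, 244, and 216 TPM in libraries 1, 3, and 6. All DIV5 libraries were above all DIV3 libraries and all DIV10 libraries above all DIV5 libraries. Camk2a rose by 1.82 ± 0.39 (log2, SE, adjusted p = 0.00258) from DIV3 to DIV5, by 2.22 ± 0.39 (adjusted p = 9.5e-05) from DIV5 to DIV10, and by 4.04 ± 0.42 (adjusted p = 7.24e-09) from DIV3 to DIV10. The last of these held in all 12 alternatives, with a log2 change of 3.69 to 4.26. At E15, Camk2a was at 10.1 and 23.9 TPM, a range that spans the DIV3 values. The gene lies at chr18:60925618-60988152 on the plus strand, with 18 exons in its main transcript.

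**Figure D1:**
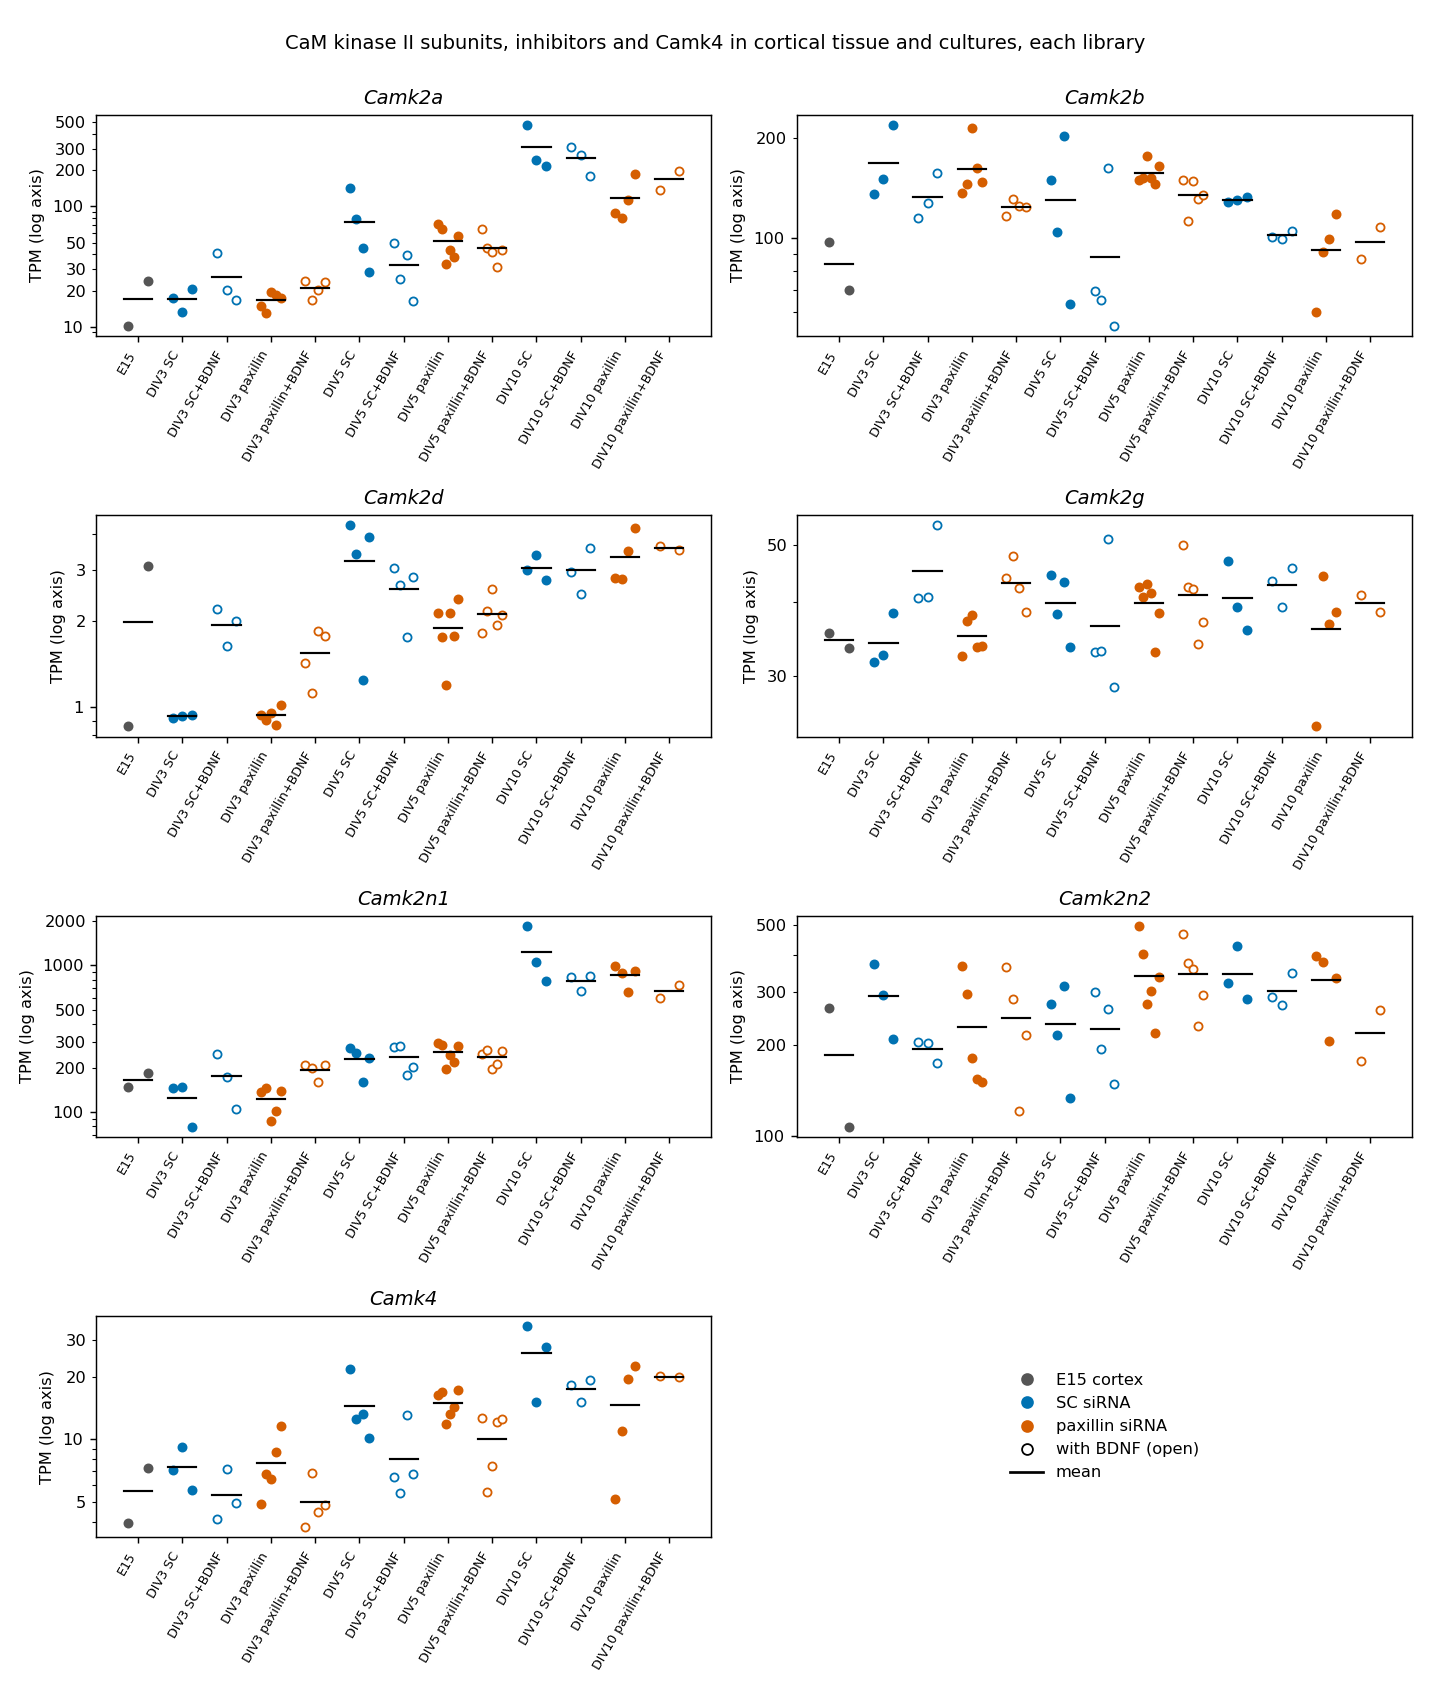
Each panel plots 1 gene, with TPM on a log axis and the 13 groups of cortical libraries on the horizontal axis. Points are libraries (grey E15, blue SC siRNA, orange paxillin siRNA, open symbols with BDNF) and bars are group means; Camk2a and Camk2n1 are highest at DIV10 in all 4 treatments, and Camk2b is not.

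Camk2b, whose protein also binds actin filaments in spines, was the most abundant subunit at DIV3, at 136, 151, and 219 TPM. It was at 150.0, 104, 204, and 63.5 TPM at DIV5 and at 129, 130.2, and 133 TPM at DIV10. The DIV10 values fell within the range of DIV5 and below all 3 DIV3 values, and the fitted log2 change from DIV3 to DIV10 was -0.34 ± 0.28 (adjusted p = 0.375). From E15, where it was at 97.6 and 70.1 TPM, Camk2b rose by 0.99 ± 0.32 (adjusted p = 0.0455) to DIV3, beside 8.11% of all genes tested, but the call was lost without any one of the 5 libraries (log2 change 0.75 to 1.23), in the fit of only these groups, and without the libraries numbered 10 and 11. Camk2d, which did not pass here, passed without E15 library 1 (-1.08, adjusted p = 0.0153). At E15, markers of red blood cells summed to 882 to 1380 TPM and of endothelial cells to 395 to 396 TPM, against at most 7.31 and 1.04 TPM in the SC siRNA cultures at DIV3, and their part in this rise was not tested.

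Camk2d, a subunit used in many tissues and best known from heart, was at 0.920, 0.935, and 0.939 TPM at DIV3, at 4.27, 3.40, 1.24, and 3.90 TPM at DIV5, and at 3.00, 3.38, and 2.77 TPM at DIV10. Its DIV3 libraries were all below the others. The rise was 1.05 ± 0.21 (log2, adjusted p = 0.0012) from DIV3 to DIV5 and 1.07 ± 0.22 (adjusted p = 0.000284) from DIV3 to DIV10. Camk2g, whose protein can carry calmodulin toward the nucleus, ranged only from 31.7 to 46.9 TPM over the 10 SC siRNA libraries, with a log2 change of 0.24 ± 0.17 (adjusted p = 0.275). Over DIV3 to DIV10, the share of Camk2a in the summed TPM of the 4 subunits went from 7.81% ± 1.37 (SD, n = 3) to 62.3% ± 9.07 (SD, n = 3) and that of Camk2b from 76.04% ± 2.72 (SD, n = 3) to 28.4% ± 7.68 (SD, n = 3).

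The inhibitor Camk2n1 was at 144, 148, and 78.9 TPM at DIV3, at 273, 252, 160.3, and 233 TPM at DIV5, and at 1870.0, 1055, and 779 TPM at DIV10. The groups did not overlap. It rose by 0.91 ± 0.26 (log2, adjusted p = 0.0176) from DIV3 to DIV5 and by 2.35 ± 0.26 (adjusted p = 1.05e-07) from DIV5 to DIV10. The earlier rise was no longer called without DIV3 library 3 (log2 change 0.62, adjusted p = 0.171) or without DIV5 library 1, 2, or 4 (0.82 to 0.90, highest adjusted p = 0.0657). Over the whole interval the change was 3.27 ± 0.27 (adjusted p = 7.73e-11), called in all 12 alternatives.

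The other inhibitor, Camk2n2, was at 372, 292, and 210.0 TPM at DIV3 and at 322, 427, and 284 TPM at DIV10, so the groups overlapped (log2 change 0.26 ± 0.37, adjusted p = 0.629). The ratio of Camk2n1 to Camk2n2 TPM was 0.424 ± 0.0725 (SD, n = 3) at DIV3 and 3.67 ± 1.85 (SD, n = 3) at DIV10. Summed inhibitor TPM per summed subunit TPM was 2.01 ± 0.889 (SD, n = 3) and 3.22 ± 0.423 (SD, n = 3) at these days, a description with no test. Camk4 was at 7.14, 9.15, and 5.71 TPM at DIV3, at 21.7, 12.5, 13.2, and 10.1 TPM at DIV5, and at 34.9, 15.05, and 27.7 TPM at DIV10. Camk4 lies at chr18:32934931-33191228 on the plus strand, with 11 exons. Its DIV10 libraries lay above all DIV3 libraries, a rise of 1.63 ± 0.36 (log2, adjusted p = 0.000535) that was called in all 12 alternatives.

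Camk4 did not pass from DIV5 to DIV10 (0.78 ± 0.34, adjusted p = 0.0829), but it did without DIV10 library 3 (1.12) or DIV5 library 1 (0.99). Of the 7 genes, 3 passed from DIV3 to DIV5, beside 9.47% of all genes, and 2 passed from DIV5 to DIV10, beside 24.9%. All of these 5 calls were lost in a fit of only the groups compared, where 3 and 11 genes of all tested passed, while the fits of DIV3 against DIV10 kept their 4 calls. With TPM rescaled by median ratios, Camk2n1 missed the threshold from DIV3 to DIV5 (log2 change 0.77, adjusted p = 0.0718). The median log2 change of all genes tested was 0.11 from DIV3 to DIV5, -0.16 from DIV5 to DIV10, and -0.11 from DIV3 to DIV10 in paxillin siRNA cultures, and under 0.1 in size from DIV3 to DIV10 in SC siRNA cultures, and changes of the members are read relative to these shifts.

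**Figure D2:**
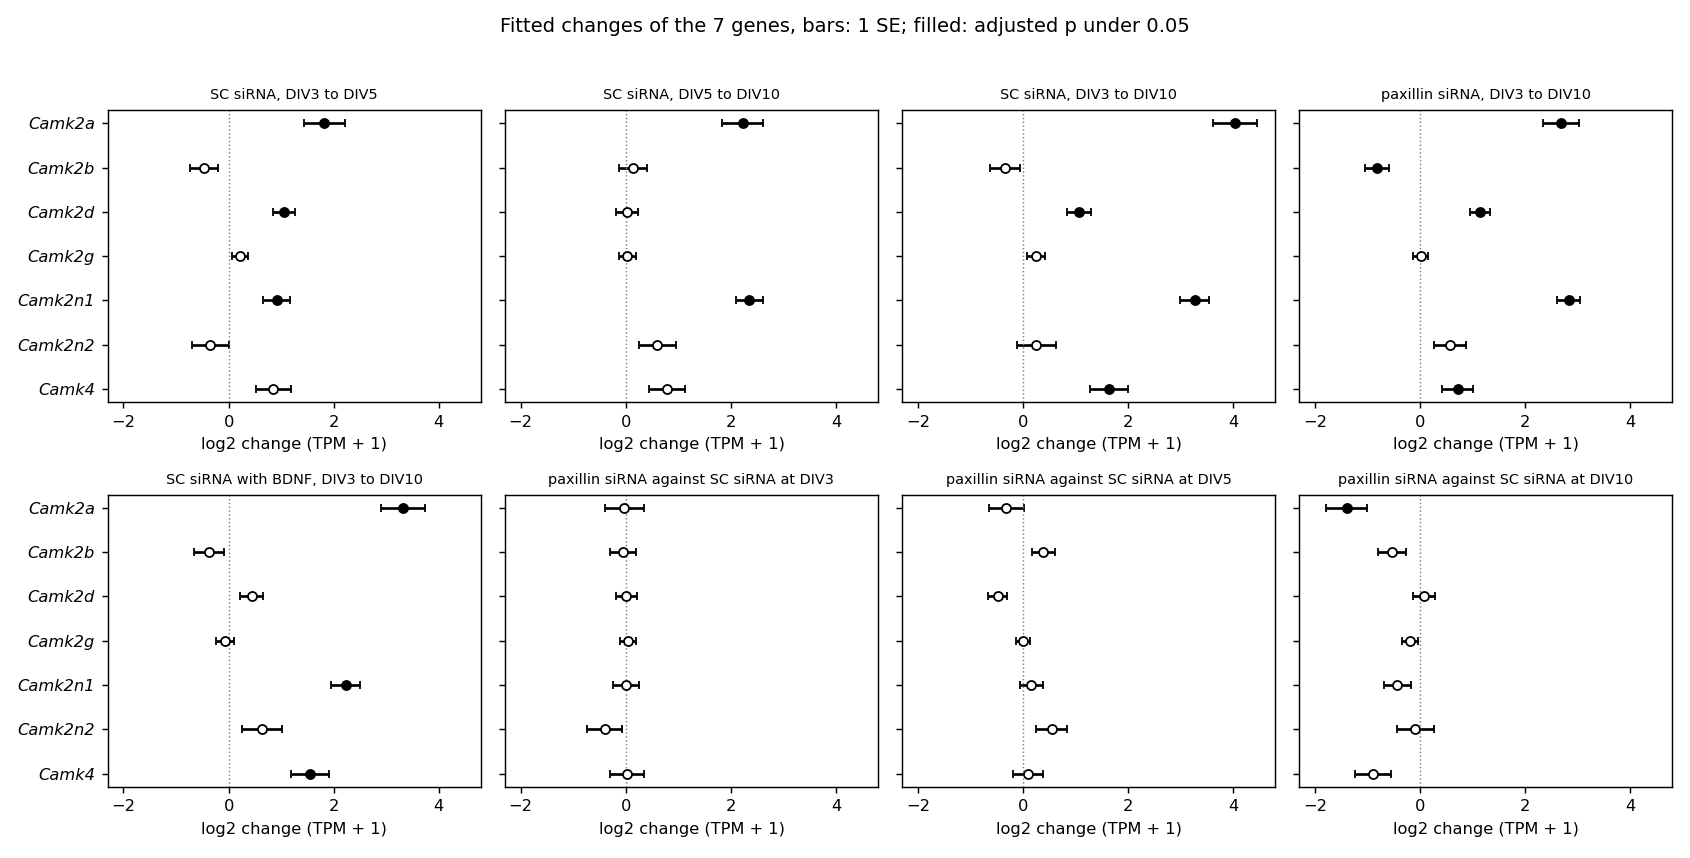
Each panel plots the fitted log2 change of TPM + 1 of the 7 genes in 1 comparison, with bars of 1 SE and filled symbols where the adjusted p was under 0.05. Camk2a and Camk2n1 have the largest changes with day, up to 4.04 and 3.27, and Camk2a alone is filled at -1.40 in the siRNA comparison at DIV10.

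The same interval was compared in the other 2 sets of cultures with several libraries at each end. With paxillin siRNA, Camk2a went from 13.1 to 19.3 TPM (median 17.4, n = 5) at DIV3 to 88.4, 80.4, 114, and 185 TPM at DIV10, a rise of 2.67 ± 0.34 (log2, adjusted p = 4.66e-08). Camk2n1 went from 87.0 to 146 TPM (median 138, n = 5) to 990.5, 889.6, 658, and 921 TPM, a rise of 2.83 ± 0.22 (adjusted p = 2.92e-12). The DIV3 and DIV10 libraries did not overlap for either gene. Camk2d also rose, by 1.14 ± 0.18 (adjusted p = 2.23e-06), and Camk2b fell, by 0.82 ± 0.23 on the log2 scale (adjusted p = 0.00307), from 137 to 214 TPM down to 60.2, 91.1, 99.6, and 118 TPM. These 4 calls held in all 15 alternatives. Camk4 was called as well (0.71 ± 0.29, adjusted p = 0.0395), but in only 7 of 15 alternatives. Among the losses were the fits without DIV10 library 10 (log2 change 0.52) or 11 (0.45), without DIV3 library 1 (0.58), 2 (0.69), or 3 (0.67), and without libraries 10 and 11 together (0.30, adjusted p = 0.526). Camk2n2 (0.56 ± 0.31, adjusted p = 0.118) passed without DIV10 library 10 (0.77) or DIV3 library 1 (0.76). Thus 5 of 7 passed, beside 54.3% of all genes tested.

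With SC siRNA and BDNF, 3 of 7 passed from DIV3 to DIV10, beside 40.3% of all genes. Camk2a went from 40.9, 20.1, and 16.7 TPM to 314, 267, and 180.4 TPM (log2 change 3.31 ± 0.42, adjusted p = 1.7e-07). Camk2n1 went from 248, 173, and 105 TPM to 831, 666, and 848 TPM (2.23 ± 0.27, adjusted p = 9.55e-08), and Camk4 from 4.12, 7.22, and 4.92 TPM to 18.2, 15.1, and 19.2 TPM (1.55 ± 0.36, adjusted p = 0.000728). None of these groups overlapped. Libraries of the same number varied together here, and with the number as a block Camk2d (0.44, adjusted p = 0.0379) and Camk2n2 (0.63, adjusted p = 0.0169) passed too.

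The log2 ratio of Camk2a to Camk2b, each as TPM + 1, was compared over all cultures, with days exchanged within siRNA and BDNF groups. In SC siRNA cultures the mean log2 ratio was -3.22 ± 0.28 (SD, n = 3) at DIV3, -0.94 ± 0.92 (SD, n = 4) at DIV5, and 1.16 ± 0.63 (SD, n = 3) at DIV10, so that Camk2b exceeded Camk2a in the DIV3 libraries and Camk2a exceeded Camk2b in all 3 DIV10 libraries. The 15 cultures at DIV3 lay between -3.42 and -1.47, and the 12 at DIV10 between -0.18 and 1.87. The ratio rose by 1.43 (2.699-fold) from DIV3 to DIV5, by 2.22 (4.67-fold) from DIV5 to DIV10, and by 3.70 (12.96-fold) from DIV3 to DIV10. Each of these 3 permutation tests gave p = 1e-05, the smallest that 100000 resamples can give, and 3e-05 after Benjamini-Hochberg adjustment over the 9 ratio comparisons. The tests pooled all 4 treatments and exchanged each library on its own. Libraries of the same number varied together between several treatments of a day, so these p-values count more independent libraries than there may be. At E15 the log2 ratio was -3.15 and -1.52 in the 2 libraries.

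**Figure D3:**
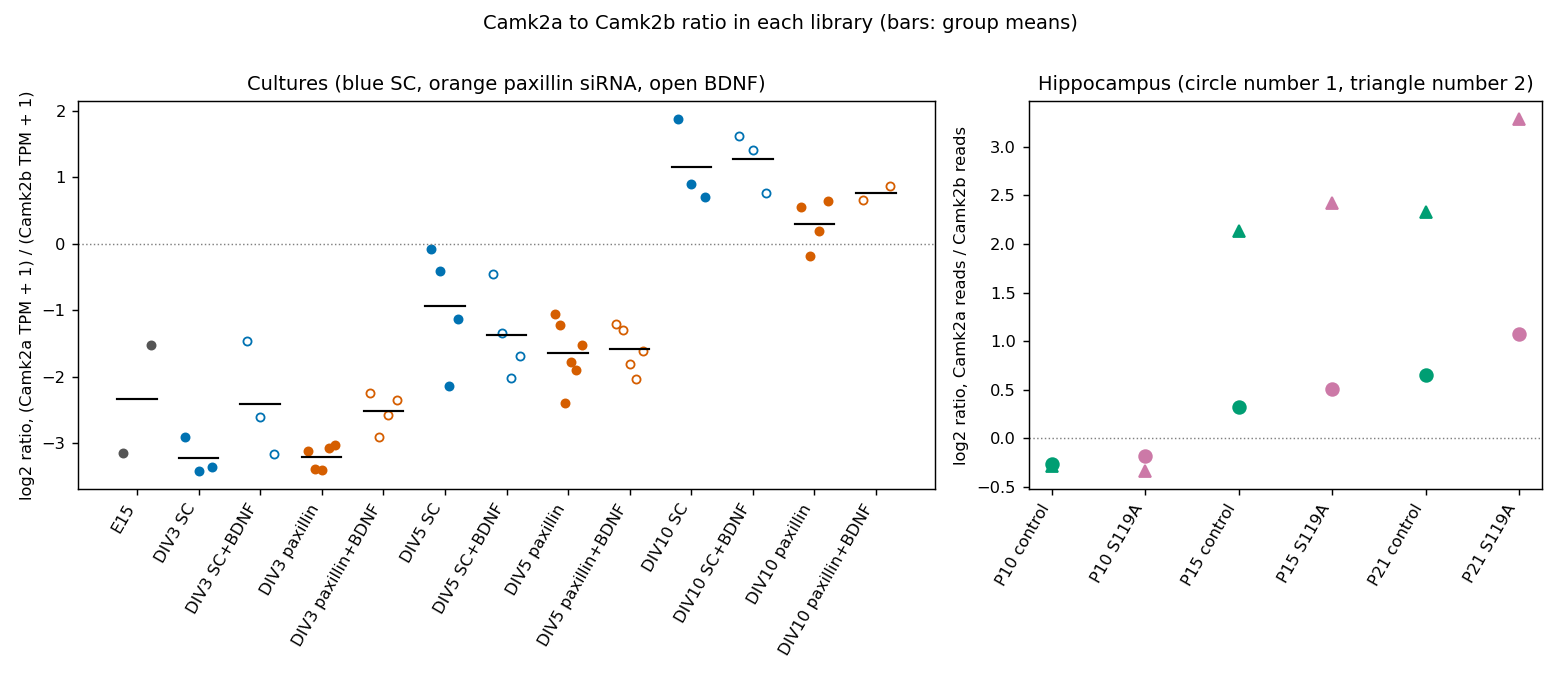
The left panel plots the log2 ratio of Camk2a to Camk2b (TPM + 1) in each cortical library by group, with bars at group means, and the right panel the log2 ratio of their reads in each hippocampus library by age and genotype. The culture group means cross 0, where the levels are equal, between DIV5 and DIV10; the P15 and P21 hippocampus libraries numbered 2 (triangles) lie above those numbered 1 (circles) in each group.

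The marker genes of cell types moved over the same days. In SC siRNA cultures, the 5 markers of excitatory neurons summed to 2214 to 3473 TPM at DIV3 and 1084 to 1988 TPM at DIV10, and the 8 general neuronal markers to 3214 to 4246 TPM and 1557 to 2235 TPM. Markers of astrocytes summed to 267 to 866 TPM and 1442 to 8599 TPM, of oligodendrocytes to 865 to 1638 TPM and 1470 to 4755 TPM, of oligodendrocyte precursors to 39.2 to 104 TPM and 62.4 to 272 TPM, and of microglia to 36.2 to 54.5 TPM and 171 to 974 TPM. Inhibitory neuron markers summed to 597 to 1263 TPM and 191 to 1383 TPM, and dividing progenitor markers to 274 to 332 TPM and 36.1 to 176 TPM. The cultures labelled cortical neuron thus held neuronal markers throughout and gained those of glia, while the markers of red blood cells and endothelial cells summed to at most 7.31 and 3.63 TPM at these days. The rise of Camk2a, Camk2n1, and Camk4 went with a lower sum of neuronal markers, and the part of cell composition in it was not tested.

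The other genes of the pathway were taken from lists of genes that load, activate, oppose, or receive CaM kinase II. From DIV3 to DIV10 in SC siRNA cultures, where 35.2% of all genes passed, of 7 genes of calmodulin and its binding proteins 3 rose and 1 fell (median log2 change 0.50, against -0.04 over all genes tested), with the synaptic calmodulin buffer Nrgn at 3.10 ± 0.65 (adjusted p = 0.000308) and Pcp4 at 2.11 ± 0.29 (adjusted p = 9.73e-07). Of 7 other CaM kinases 1 rose and 1 fell (median 0.18), Camk1d at 0.73 ± 0.24 (adjusted p = 0.0156) and Camkk1, which activates CaM kinases I and IV, at -0.61 ± 0.22 (adjusted p = 0.0248). Of 10 phosphatase genes 1 rose and 1 fell (median 0.14), Ppp1r1b at 1.04 ± 0.41 (adjusted p = 0.0436) and Ppp1cc at -0.60 ± 0.17 (adjusted p = 0.00428). Of 12 synaptic partners and substrates 3 rose and 0 fell (median 0.38), among them the scaffold genes Dlg4 at 1.36 ± 0.20 (adjusted p = 3.77e-06) and Shank3 at 1.27 ± 0.27 (adjusted p = 0.000333). Of 8 transcription factors and targets downstream of Camk4, none passed with limma (median 0.24), and the largest values were Fos at 1.16 ± 0.74 (adjusted p = 0.225) and Mef2c at -1.04 ± 0.44 (adjusted p = 0.0614).

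The genes whose log2(TPM + 1) was most alike over all 48 cortical libraries were read off as a description, since the libraries share days and treatments. For Camk2a they were Kcnj9, Snph, and Fam81a (Pearson r = 0.935, 0.935, and 0.932). For Camk2b they were Map3k9, Jph4, and Rnf157 (r = 0.892, 0.874, and 0.870), so the genes nearest to Camk2a and Camk2b were different ones. For Camk2n1 they were Wnt9a, Tspan33, and Fth1 (r = 0.933, 0.928, and 0.915), and for Camk4 they were Lsm11, Pgm2l1, and Adcy1 (r = 0.930, 0.924, and 0.896).

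The second question was whether paxillin siRNA changes these genes. At DIV3, none of the 7 passed, as did 0 of all 14250 genes with limma (21 at an unadjusted p under 0.05), and the largest fitted difference was -0.40 ± 0.33 for Camk2n2. At DIV5, again 0 of 7 passed with all libraries in one fit (6.18% of all genes did), the day at which Pxn was lower. Camk2d was at 1.199 to 2.38 TPM (median 1.94, n = 6) with paxillin siRNA and at 4.27, 3.40, 1.24, and 3.90 TPM with SC siRNA, a difference of -0.48 ± 0.18 (log2, adjusted p = 0.0918). Camk2n2 was at 220.0 to 499 TPM (median 319.9, n = 6) against 273, 215, 315, and 134 TPM, a difference of 0.55 ± 0.30 (adjusted p = 0.264). For both genes the groups overlapped. Libraries of the same number varied together at DIV5, and with the number as a block Camk2d (-0.52, adjusted p = 0.00982) and Camk2n2 (0.74, adjusted p = 0.00406) passed. Without SC siRNA library 3, Camk2d (-0.76, adjusted p = 0.00176) and Camk2b (0.64, adjusted p = 0.0496) passed. Markers of other cells also differed between these groups: astrocyte markers summed to 1280 to 8317 TPM (median 5615) with SC siRNA and 1089 to 2038 TPM (median 1454) with paxillin siRNA. Oligodendrocyte markers summed to 1565 to 5150 TPM and 1215 to 2123 TPM, and general neuronal markers to 1463 to 3234 TPM and 2373 to 3512 TPM. The part of these markers in the differences of Camk2b, Camk2d, and Camk2n2 was not tested.

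At DIV10, Camk2a was lower with paxillin siRNA, at 88.4, 80.4, 114, and 185 TPM, than with SC siRNA, at 476, 244, and 216 TPM. The groups did not overlap, and the log2 difference was -1.40 ± 0.39 (adjusted p = 0.0473), the only 1 of the 7 that passed, beside 2.58% of all genes. The call was kept in 6 of 13 alternatives. It was lost without paxillin siRNA library 1 (-1.29, adjusted p = 0.269) or 2 (-1.24, adjusted p = 0.15), without SC siRNA library 1 (-1.05, adjusted p = 0.254) or 6 (-1.61, adjusted p = 0.109), without the filter (adjusted p = 0.0700), with rescaled TPM (-1.28, adjusted p = 0.0584), and in a fit of only these groups (adjusted p = 0.678), where 0 genes passed. Pxn itself was at 11.5 to 18.8 TPM with paxillin siRNA and 8.99 to 19.9 TPM with SC siRNA at that day, and did not pass (log2 difference 0.19, adjusted p = 0.609).

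The remaining genes at DIV10 did not pass in the fit without a block. With the library number as a block, Camk2n1 and Camk4 passed, although only 1 pair of libraries shared a number (correlation -0.44). Camk4 was at 5.14, 10.98, 19.4, and 22.6 TPM with paxillin siRNA and 34.9, 15.05, and 27.7 TPM with SC siRNA (log2 difference -0.89 ± 0.34, adjusted p = 0.1), and the groups overlapped. It passed without paxillin siRNA library 10 (-1.09) or 11 (-1.15), without both (-1.57, adjusted p = 0.00246), and without SC siRNA library 3 (-1.23). Camk2b was at 60.2, 91.1, 99.6, and 118 TPM against 129, 130.2, and 133 TPM, without overlap but with a log2 difference of only -0.54 ± 0.27 (adjusted p = 0.2). Camk2n1 (-0.43 ± 0.26, adjusted p = 0.287), Camk2g, Camk2n2, and Camk2d (0.08 ± 0.21) showed smaller differences. The excitatory markers summed to 383 to 1307 TPM with paxillin siRNA against 1084 to 1988 TPM, and the general neuronal markers to 763 to 2277 TPM against 1557 to 2235 TPM, and their part in the lower Camk2a was not tested. The change of Camk2a from DIV3 to DIV10 was smaller with paxillin siRNA than with SC siRNA by 1.37 ± 0.54 on the log2 scale, a difference between the changes that did not pass (adjusted p = 0.527 with limma), beside 0.00702% of all genes.

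Among the pathway lists at DIV10, where 2.58% of all genes passed, 0 of 7 calmodulin genes, 0 of 7 other CaM kinases, and 0 of 10 phosphatases passed with limma, 3 of 12 synaptic partners fell, and Crtc1, a coactivator of CREB, fell by 0.84 ± 0.19 (adjusted p = 0.0310) as the only 1 of 8 transcription factors and targets. The 12 synaptic partners had a median log2 difference of -0.95, against -0.06 over all genes tested, and their largest values, Grin1 at -1.55 ± 0.45 (adjusted p = 0.0520) and Gria1 at -1.52 ± 0.67 (adjusted p = 0.154), did not pass. The medians of the calmodulin genes, the other CaM kinases, and the phosphatases were -0.35, -0.45, and -0.14. With BDNF in both groups, none of the 7 genes passed at DIV3, DIV5, or DIV10, where 0%, 0.596%, and 0.0211% of all genes did. With the library number as a block, Camk2b and Camk2n2 passed at DIV5, where the 3 pairs of the same number correlated at 0.08 to 0.37. At DIV5 with BDNF, Camk2b was at 150.0, 112, 148, 131, and 135 TPM with paxillin siRNA and 69.3, 65.2, 163, and 54.5 TPM with SC siRNA (log2 difference 0.75 ± 0.23, adjusted p = 0.094), and it passed without SC siRNA library 3, which was the high one (1.09, adjusted p = 0.00229). With BDNF at that day, astrocyte markers summed to 1461 to 6520 TPM with SC siRNA and 1260 to 2005 TPM with paxillin siRNA, oligodendrocyte markers to 1309 to 5812 TPM and 1414 to 3090 TPM, and general neuronal markers to 1425 to 3652 TPM and 2035 to 3325 TPM. Their part in the difference of Camk2b was not tested.

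Over all days, with labels exchanged within day and BDNF, the log2 ratio of Camk2a to Camk2b was lower with paxillin siRNA by 0.40 (26 cultures against 20, permutation p = 0.0135, adjusted 0.0303). It was lower by 0.39 without libraries 10 and 11 (permutation p = 0.0884). With the library number as a block, the difference was -0.47 (permutation p = 0.00122). Without BDNF, the group means at DIV3 were -3.22 with SC siRNA and -3.20 with paxillin siRNA. They were -0.94 and -1.64 at DIV5 and 1.16 and 0.30 at DIV10. At DIV10 without BDNF, the 4 paxillin siRNA libraries all lay below the 3 SC siRNA libraries. With BDNF, the means in the same order were -2.41 and -2.52 at DIV3, -1.37 and -1.59 at DIV5, and 1.27 and 0.76 at DIV10. The DIV10 groups with BDNF overlapped, at 0.77 to 1.62 with SC siRNA and 0.66 and 0.86 with paxillin siRNA.

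The third question was whether BDNF changes these genes. In SC siRNA cultures 0 of 7 passed at DIV3, DIV5, and DIV10 with limma, and in paxillin siRNA cultures 0 of 7 at each day as well. In the same 6 comparisons 1.21%, 0.0491%, 0%, 2.14%, 0.014%, and 0.014% of all genes passed, and between 352 and 2568 had an unadjusted p under 0.05. The member furthest apart in SC siRNA cultures at DIV3 was Camk2d, at 2.18, 1.64, and 1.99 TPM with BDNF and 0.920, 0.935, and 0.939 TPM without, and it was at 1.43, 1.12, 1.83, and 1.77 TPM against 0.871 to 1.02 TPM (n = 5) in paxillin siRNA cultures. Neither pair of groups overlapped, but all values lay between 0.871 and 2.18 TPM, and the log2 differences were 0.60 ± 0.22 (adjusted p = 0.246) and 0.38 ± 0.18 (adjusted p = 0.385). Libraries of the same number varied together at DIV3 and DIV5 in both siRNA groups, and with the number as a block Camk2d passed in SC siRNA cultures at DIV3 (0.60, adjusted p = 0.0480). At DIV10 in SC siRNA cultures the 2 pairs of the same number correlated at 0.82 and 0.87. With that block Camk2n1 passed there, lower with BDNF. In paxillin siRNA cultures at DIV3, Camk2n1 was the member furthest apart, at 209, 199, 159, and 207 TPM with BDNF and 87.0 to 146 TPM (n = 5) without, and these groups did not overlap. Its log2 difference was 0.68 ± 0.22 (adjusted p = 0.122), and with the same block it was 0.58 (adjusted p = 0.00226), past the threshold.

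At DIV5 in SC siRNA cultures, Camk2a was at 50.1, 25.1, 39.7, and 16.3 TPM with BDNF and 142, 78.7, 45.4, and 28.6 TPM without, a difference of -1.02 ± 0.36 (log2, adjusted p = 0.342) between overlapping groups. It passed without SC siRNA library 4 (-1.38, adjusted p = 0.0495), and Camk2b passed without the BDNF library 3 (-0.92, adjusted p = 0.0319). The response to BDNF passed no test of a difference between paxillin siRNA and SC siRNA for the 7 genes at DIV3, DIV5, or DIV10 with limma, where 0 of all genes passed and 162, 116, and 885 had an unadjusted p under 0.05. The log2 ratio of Camk2a to Camk2b was 0.25 higher with BDNF (25 cultures against 21, permutation p = 0.136, adjusted 0.175). Without SC siRNA library 1 at DIV5, this difference was 0.31 (permutation p = 0.0495). It pools group means that moved in both directions. In SC siRNA cultures the means without and with BDNF were -3.22 and -2.41 at DIV3, -0.94 and -1.37 at DIV5, and 1.16 and 1.27 at DIV10. In paxillin siRNA cultures they were -3.20 and -2.52, -1.64 and -1.59, and 0.30 and 0.76.

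In hippocampus, the question was how the genes change from P10 to P21 and whether the S119A genotype changes them. Values there are long reads per 1000000 reads (RPM), which are not divided by length, so they are compared between libraries and not between genes. From P10 to P21, Camk2a and Camk2n1 rose, the same pair that rose most in the cultures, and 2 of 7 genes passed, beside 10.7% of 13561 genes tested. Camk2a, which is transcribed mainly in excitatory neurons, was at 479 and 421 RPM in control and 507 and 469.7 in S119A libraries at P10, with the library numbered 1 first. At P15 it was at 873 and 993 in control and 1021 and 1309 in S119A libraries, and at P21 at 1293 and 1017 and at 1259.5 and 2759. All P15 and P21 libraries were above all P10 libraries, and the S119A library 2 at P21 stood highest. Camk2a rose by 1.70 ± 0.25 (log2, adjusted p = 0.0056), in all 18 alternatives, and by 1.45 (adjusted p = 3.97e-09) without the 4 libraries that stood apart, where 5 of 7 genes passed, beside 35% of 13741 genes tested.

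Camk2n1 was at 318 and 352 in control and 325 and 327 RPM in S119A libraries at P10. It was at 563 and 506 and at 585 and 573 at P15, and at 789.8 and 818 and at 936 and 785 at P21. The 3 ages did not overlap, and the libraries numbered 2 did not stand apart. The rise of Camk2n1 from P10 to P21 was 1.34 ± 0.12 (adjusted p = 0.00106), in all 18 alternatives, and 1.39 (adjusted p = 4.96e-09) without the 4 libraries.

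**Figure D4:**
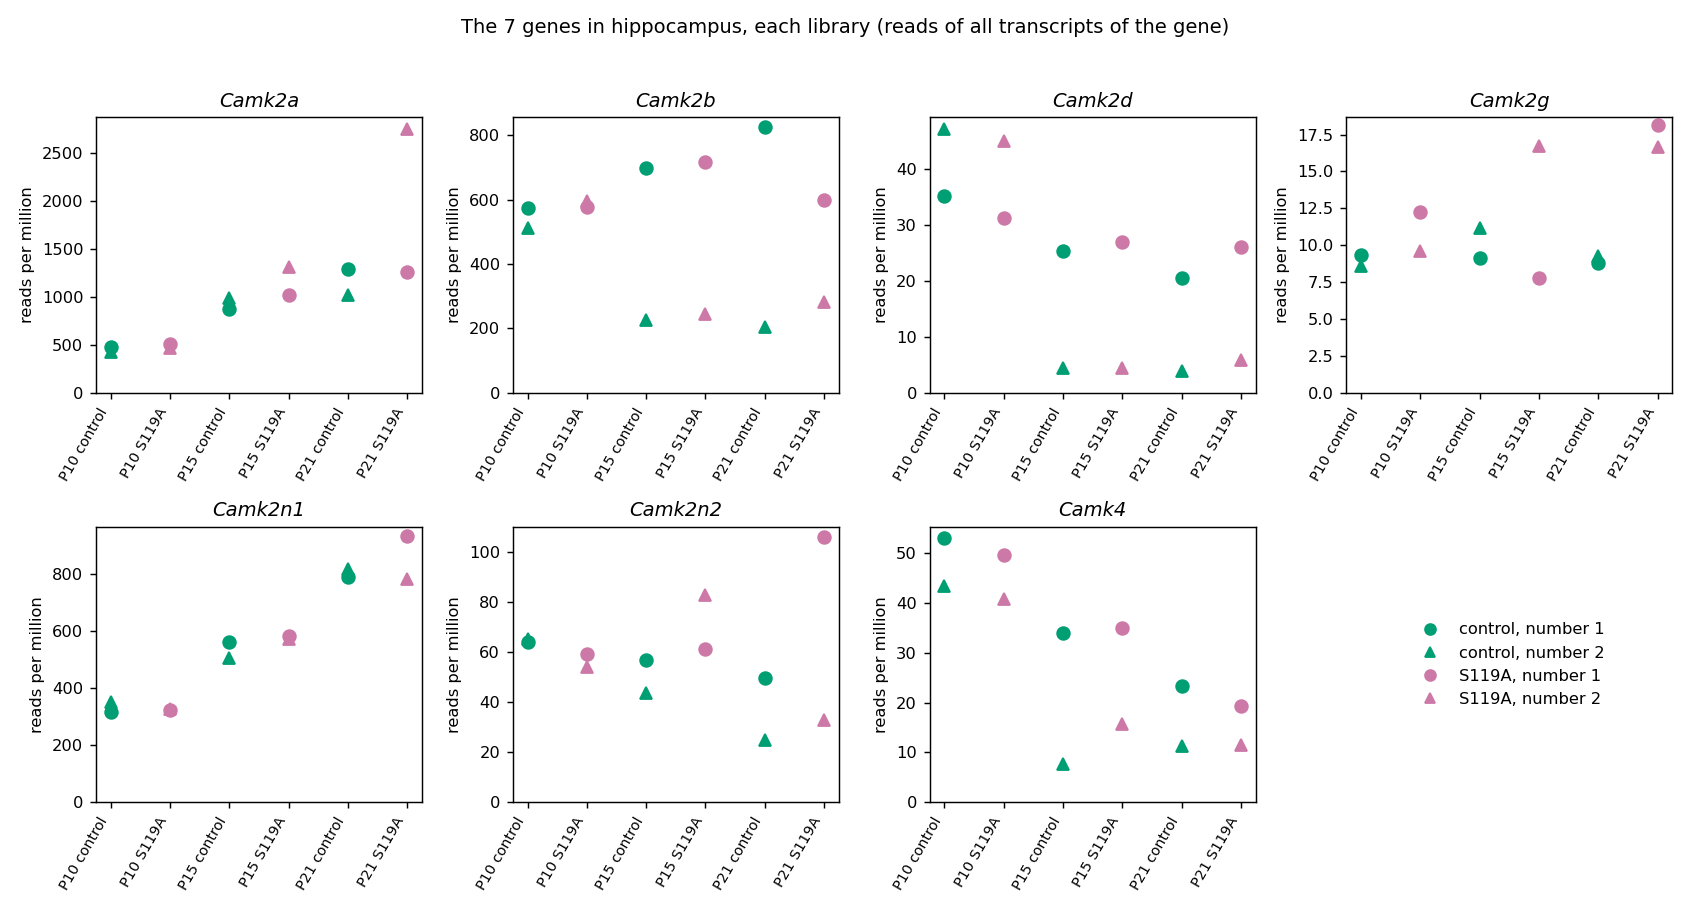
Each panel plots 1 gene, with RPM on the vertical axis and age and genotype on the horizontal axis (green control, pink S119A, circles library 1, triangles library 2). Camk2n1 steps up at each age in all 4 libraries, whereas Camk2b, Camk2d, and Camk4 split by library number at P15 and P21.

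From P10 to P15, Camk2a rose by 1.21 ± 0.24 (adjusted p = 0.0453) and Camk2n1 by 0.81 ± 0.12 (adjusted p = 0.0173), beside 2.32% of all genes. The call of Camk2a held in only 2 of the 12 fits with 1 library left out (it was kept without S119A library 1 or 2 of P21, and the highest adjusted p was 0.178), and that of Camk2n1 in 6 (it was lost without any one of the P10 libraries or the P15 libraries numbered 2, highest adjusted p = 0.113). Without the 4 libraries that stood apart, both were called (1.03, adjusted p = 9.2e-07, and 0.81, adjusted p = 8.88e-06), as was Camk2d (-0.59, adjusted p = 0.0298), beside 16.9% of 13741 genes tested. From P15 to P21, 0 of 7 passed with edgeR, beside 0.00737% of all genes, of which 1240 had an unadjusted p under 0.05, and DESeq2 called Camk2n1 (0.53, adjusted p = 0.00356). Without the 4 libraries, Camk2a (0.43, adjusted p = 0.0424), Camk2n1 (0.58, adjusted p = 0.00583), and Camk4 (-0.69, adjusted p = 0.0431) passed, beside 3.29% of all genes.

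Within a genotype, the rise of Camk2n1 from P10 to P21 was 1.33 ± 0.17 (adjusted p = 0.0146) in control and 1.355 ± 0.17 (adjusted p = 0.0142) in S119A libraries, and that of Camk2a was 1.42 ± 0.35 (adjusted p = 0.0885) and 1.99 ± 0.35 (adjusted p = 0.0316). In these comparisons 1.93% and 2.31% of all genes passed. The call of Camk2n1 was lost in controls without any one of the 4 control libraries of P10 and P21 (log2 change 1.26 to 1.402) and in S119A libraries without S119A library 1 or 2 of P10 or 2 of P21 (1.37 to 1.49). That of Camk2a in S119A libraries was lost without any one of the P10 libraries (1.96 to 2.05) and without S119A library 2 of P21 (1.33, adjusted p = 0.127), and in controls Camk2a passed without either S119A library of P21 (1.42 and 1.44) and with DESeq2. The difference between the rises was 0.57 ± 0.48 (log2) for Camk2a and 0.02 ± 0.24 for Camk2n1, and 0 of all genes passed this test.

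Camk2b, Camk2d, and Camk4 depended on the libraries numbered 2. Camk2b was at 513 to 595 RPM at P10, at 698 and 718 in the P15 libraries numbered 1, and at 226 and 243 in those numbered 2, and at P21 it was at 824 and 599.8 against 203 and 282. With all libraries the log2 change from P10 to P21 was -0.25 ± 0.53 (adjusted p = 0.789), and without the 4 libraries it was 0.34 (adjusted p = 0.0336). Its direction thus turned with these libraries.

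Camk2d was at 31.2 to 47.1 RPM at P10, at 25.3 and 27.1 in the P15 and 20.6 and 26.1 in the P21 libraries numbered 1, and at 3.95 to 5.84 in the 4 numbered 2. Its change was -1.50 ± 0.78 (adjusted p = 0.27) with all libraries and -0.77 (adjusted p = 0.00368) without the 4. Camk4 was at 40.7 to 53.0 at P10, at 33.9 and 34.997 in the P15 and 23.4 and 19.4 in the P21 libraries numbered 1, and at 7.72 to 15.8 in the 4 numbered 2. The fall of Camk4 was 1.51 ± 0.46 on the log2 scale (adjusted p = 0.0791) with all libraries, 1.12 (adjusted p = 3.69e-05) without the 4, and 1.51 (adjusted p = 0.0177) with DESeq2. It also passed without P15 control library 1 (-1.48) or 2 (-1.51). Camk4, which rose with days in the cultures, was thus lower at P21 than at P10 in every library of the hippocampus.

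Camk2g was read by only 33 to 77 long reads per library, at 7.76 to 18.1 RPM, and its log2 change was 0.35 ± 0.27 (adjusted p = 0.458), or 0.40 (adjusted p = 0.203) without the 4 libraries. Camk2n2 was at 54.2 to 65.4 RPM at P10 and at 49.9, 24.8, 106, and 33.1 at P21 (-0.25 ± 0.36, adjusted p = 0.696). Its log2 change was 0.32 (adjusted p = 0.201) without the 4 libraries, so its sign turned, and Camk2n2 passed in neither fit. The P21 values of Camk2n2 surrounded those of P10.

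How far the libraries numbered 2 fell at P15 and P21 went with base composition. Among 12468 transcripts matched to a sequence, the median log2 ratio of library 2 to library 1 was -1.26 to -1.71 for those whose richest 100 bases held 85% G and C or more, and within 0.02 of 0 at P10. The richest 100 bases held 88% in the main transcript of Camk2b and 82% in that of Camk4. Their log2 ratios at P15 and P21 were -0.99 to -1.78 and -0.89 to -2.03. For Camk2d the matched transcript was NM_001293663.1, with 81% and log2 ratios of -1.08 to -2.85. It took only 6.54% of the Camk2d reads, against 28.4% for XM_017319419.2, and its ratios rest on 0 to 14 reads per library. In the main transcript of Camk2a the richest 100 bases held 69% (-0.24 to 1.14). Camk2n1 did not follow the bins, with 87% in its richest 100 bases and log2 ratios of -0.26 to 0.21. Camk2n2, with 86%, had log2 ratios of -0.22 and 0.59 at P15 and -0.84 and -1.68 at P21 (control first). The part of this base composition in the values of each gene was not tested.

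**Figure D5:**
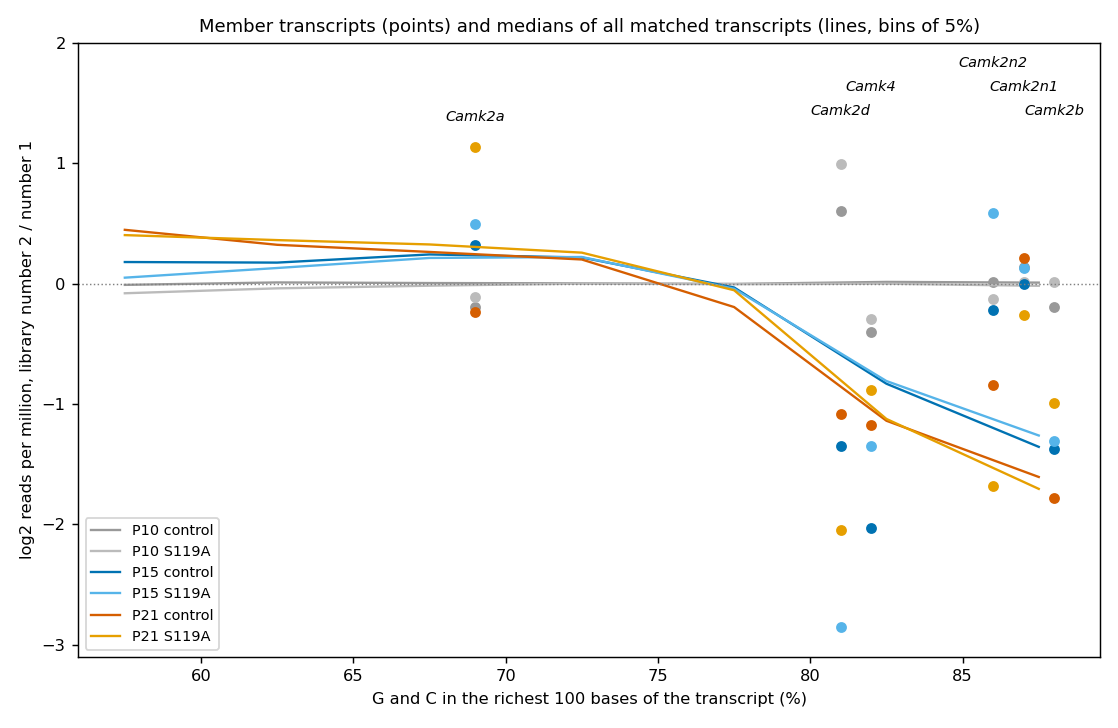
The horizontal axis is the share of G and C in the richest 100 bases of a transcript (%) and the vertical axis the log2 ratio of RPM in library 2 to library 1. Lines are medians of all matched transcripts in bins of 5% for each age and genotype. Points are 1 transcript for each of 6 of the 7 genes, the main one except in Camk2d. Camk2g is not drawn because its matched transcript was not among those tested.

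The log2 ratio of Camk2a to Camk2b reads rose with age, as in the cultures. The ratio of reads itself was 0.789 to 0.879 in the 4 P10 libraries. It was 1.25 and 1.42 in the P15 libraries numbered 1, 4.40 and 5.38 in those numbered 2, 1.57 and 2.10 in the P21 libraries numbered 1, and 5.01 and 9.77 in those numbered 2. All P15 and P21 libraries were above all P10 libraries. The log2 ratio rose by 1.62 from P10 to P15 and by 2.10 from P10 to P21 (4 libraries against 4, exact permutation p = 0.0286 for each, the smallest possible, adjusted 0.0429). Without the 4 libraries it rose by 0.68 and 1.13 (exact permutation p = 0.0667 for each, the smallest that 2 against 4 allow). From P15 to P21 the difference was 0.48 (exact permutation p = 0.514), and the ratio was higher at P21 than at P15 in the library of the same genotype and number in all 4 cases (p = 0.125 by exact permutation within these pairs, the smallest they can give). It was 0.44 without the 4 libraries (2 against 2, exact permutation p = 0.333, the smallest possible).

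By genotype, none of the 7 genes passed with edgeR or DESeq2 at any age or over all ages. Over all ages 0 of 13561 genes passed with edgeR and 121 had an unadjusted p under 0.05. Libraries of the same number varied together between genotypes at P15 and P21 (correlations of 0.86 and 0.84), which these fits did not use. The fitted log2 differences of S119A from control were 0.37 ± 0.20 for Camk2a, -0.05 ± 0.43 for Camk2b, 0.09 ± 0.63 for Camk2d, and 0.45 ± 0.22 for Camk2g. They were 0.01 ± 0.10 for Camk2n1, 0.38 ± 0.30 for Camk2n2, and -0.03 ± 0.37 for Camk4. When the 4 libraries were left out they were 0.09 for Camk2a, -0.07 for Camk2b, 0.02 for Camk2d, 0.34 for Camk2g, 0.04 for Camk2n1, 0.19 for Camk2n2, and -0.11 for Camk4, and none passed. The SE was smallest for Camk2n1 and largest for Camk2d, so a difference in Camk2d of the size of its SE could not be seen. The log2 ratio of Camk2a to Camk2b differed by 0.31 between genotypes (6 against 6, exact permutation p = 0.528), and by 0.16 without the 4 libraries (exact permutation p = 0.25). With the library number as a block, the difference of 0.31 did not pass 0.05 by exact permutation either.

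In the hippocampus marker lists from P10 to P21, where 10.7% of all genes passed, 5 of 7 oligodendrocyte, 3 of 9 astrocyte, 2 of 5 tested microglial, 2 of 5 inhibitory, and 2 of 3 tested red blood cell markers rose, and 4 of 8 dividing progenitor markers fell. Of 8 general neuronal markers 1 rose and 2 fell, of 4 tested excitatory markers 1 fell, and of 2 oligodendrocyte precursor and 3 endothelial markers none passed with edgeR. Without the 4 libraries that stood apart, where 35% of all genes passed, 6 of 7 oligodendrocyte, 5 of 9 astrocyte, 4 of 5 microglial, 3 of 5 inhibitory, and 3 of 3 red blood cell markers rose, 6 of 8 dividing progenitor and 2 of 2 oligodendrocyte precursor markers fell, of 8 general neuronal markers 4 rose and 2 fell, of 4 excitatory markers 1 rose and 2 fell, and of 3 endothelial markers 1 rose and 1 fell. The part of this shift in the rise of Camk2a and Camk2n1 was not tested.

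Of the pathway lists with all libraries, Grin2a, a receptor subunit that docks the kinase, rose by 1.87 ± 0.24 (adjusted p = 0.00333) among 2 of 11 tested synaptic partners. Camkk1 rose by 1.12 ± 0.19 (adjusted p = 0.00953) as 1 of 7 other CaM kinases, and Gap43, a calmodulin buffer of growing axons, fell by 2.30 ± 0.22 on the log2 scale (adjusted p = 0.00114) as 1 of 7 calmodulin genes. Of 10 phosphatases 1 rose and 1 fell, and of 8 transcription factors and targets Crtc1 rose, by 0.87 ± 0.20 (adjusted p = 0.0324). The medians of the 5 lists, in the order calmodulin, other CaM kinases, phosphatases, synaptic partners, and transcription factors, were 0.05, -0.32, 0.01, 0.49, and 0.54, against -0.002 over all genes tested. With the 4 libraries left out, 0 of 7 calmodulin genes rose and 3 fell, 2 of 7 other CaM kinases rose and 1 fell, 6 of 10 phosphatases rose and 2 fell, 6 of 12 synaptic partners rose and 1 fell, and 3 of 8 transcription factors and targets rose and 0 fell, beside the 35% of all genes. The medians in the same order were then -0.17, 0.08, 0.49, 0.69, and 0.33, against 0.01 over all genes tested, so those of the calmodulin genes and the other CaM kinases changed sign.

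Long reads also separated the transcripts of each gene. The 7 genes have 114 transcripts in the table, of which 85 had a read, 24 took at least 5% of their gene, and 26 were tested. From P10 to P21, 10 of these 26 passed, 6 higher and 4 lower, beside 9.18% of 24751 transcripts. With 1 library left out this count lay between 3 and 12, and it was 3 or 4 without any one of the P10 libraries, 5 without P21 control library 2, and 3 without P21 S119A library 2. NM_177407.4 took 91.7% to 95.3% of the Camk2a reads in every library and rose by 1.74 ± 0.26 (adjusted p = 0.00602). NM_007595.5 took 73.3% to 87.8% of the Camk2b reads (log2 change -0.08 ± 0.48, adjusted p = 0.937), and XM_017314239.2 took 4.82% to 7.65% of them in the 8 other libraries but 0.536% to 1.17% in the P15 and P21 libraries numbered 2. In the fit without those 4 libraries, where 29.6% of transcripts passed, the log2 change of NM_007595.5 was 0.44. NM_025451.2, the only transcript of Camk2n1, rose by 1.37 ± 0.13 (adjusted p = 0.00135).

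Camk2d, whose transcripts differ in the variable linker between kinase and hub, was spread over 40 transcripts, 28 of them with a read. XM_030252340.1 of Camk2d had 17, 29, 20, and 26 reads in the P10 libraries, 2, 0, 7, and 0 at P15, and 0, 0, 2, and 0 at P21 (control 1 and 2, then S119A 1 and 2). XM_006500820.4 had 18, 13, 15, and 22 reads at P10, 2, 1, 1, and 1 at P15, and 1, 0, 2, and 0 at P21. Both were lower in every P15 and P21 library than in any P10 library, and the tests gave adjusted p = 0.0216 and 0.00973 with edgeR. The call of XM_006500820.4 was kept in all 18 alternatives (highest adjusted p = 0.0494), and that of XM_030252340.1 in 13 of 18, being lost without any one of the P10 libraries or without P21 S119A library 2 (adjusted p = 0.0595 to 0.0841). With single reads at P21, no fold is given. Conversely, XM_006500825.4 took 3.11% to 6.58% of the Camk2d reads at P10 and 11.7% to 22.2% at P21, from 7 to 16 and 3 to 18 reads.

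Relative to the rest of their gene, 0 of the tested transcripts changed from P10 to P21 with all libraries, beside 0.872% of 17544 transcripts, of which 1118 had an unadjusted p under 0.05. With a term for the 4 libraries 7 passed, beside 6.49% of all transcripts, among them XM_030252340.1 (-2.28, adjusted p = 0.000516), XM_006500820.4 (-1.96, adjusted p = 0.00431), and XM_006500825.4 (1.10, adjusted p = 0.00595) of Camk2d. Without the 4 libraries 6 passed, beside 6.89% of 19095 transcripts. By genotype, 0 of the 26 transcripts passed, beside 0 of 24751 with edgeR (272 at an unadjusted p under 0.05), and relative to their gene also 0 (21 of 17544).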

How the data were processed

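Cortical RNA-seq was aligned and quantified by the authors (STAR 2.7.10, RSEM 1.3.3, GRCm38, per the submitters' processing notes), who deposited TPM per gene. The authors also deposited counts of Nanopore full-length cDNA reads per transcript in hippocampus (minimap2, mm10, per the submitters' processing notes), and transcripts were summed to genes here. Of 122459 transcripts, 119242 were matched to a gene. Groups came from the labels. The 7 genes and the lists were chosen with earlier results of these data known. Cultures were tested with limma 3.58.1 on log2(TPM + 1) in one fit of 13 groups, leaving out genes whose mean was under 1 TPM. Hippocampus was tested with edgeR 4.0.16 (quasi-likelihood, TMM, filterByExpr), and transcripts relative to their gene with diffSpliceDGE. DESeq2 1.42.0, other filters, scalings, pseudocounts, blocks, and libraries left out were alternatives. P-values were adjusted by Benjamini-Hochberg over all features, with a threshold of 0.05. Ratios were tested by two-sided permutation, with up to 100000 resamples. The text names the 7 genes, their transcripts with at least 5% of a gene's reads, at most 2 genes per list by size of change, and the 3 genes most alike. Hippocampus depth, 3162777 to 5687908 reads per library, limits precision for genes with few reads. Scripts were tested on simulated data. Coding sequences and positions came from GENCODE M21 on GRCm38. In cultures, libraries with the same number varied together, by the correlation of their deviations from group means, in 7 comparisons. Comparisons with only 2 pairs were not counted.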

Additional observations from a re-analysis of the deposited data

Results flagged for a closer look

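In the group of 4 SC siRNA cultures with BDNF at DIV5, library 3 stood apart from the others for Camk2b, at 162.8 TPM against 69.3 TPM in the next library. The same library stood apart for Camk4, at 13.1 TPM against 6.80 TPM. These were the 2 values past Dixon's limit among 56 groups of values tested, where chance flags about 1 in 20.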

How the results depend on the processing

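The changes of Camk2a, Camk2d, Camk2n1, and Camk4 from DIV3 to DIV10 in SC siRNA cultures, and of Camk2a and Camk2n1 from P10 to P21, kept their direction and side of the threshold under all alternatives. In fits of only the groups compared, the number of the 7 genes past the threshold was 0 for E15 to DIV3, 0 for DIV3 to DIV5, 0 for DIV5 to DIV10, and 0 for siRNA at DIV10, and 1 for BDNF with paxillin siRNA at DIV3. For siRNA at DIV10 it was also 0 without the filter and 0 with rescaled TPM, and without libraries 10 and 11 it was 2, and 0 for E15 to DIV3. With the replicate block it was 5 for DIV3 to DIV10 with SC siRNA and BDNF, 2 for siRNA at DIV5, and 3 for siRNA at DIV10 (Camk2a, Camk2n1 at -0.90, and Camk4 at -1.08). It was 2 for siRNA at DIV5 with BDNF (Camk2b at 0.83 and Camk2n2 at 0.85). It was 1 each for BDNF with SC siRNA at DIV3, with SC siRNA at DIV10 (Camk2n1 at -0.93), and with paxillin siRNA at DIV3. Libraries of the same number correlated at 0.82 and 0.87 for BDNF with SC siRNA at DIV10 (2 pairs). The correlation was -0.44 for siRNA at DIV10 (1 pair) and 0.08 to 0.37 for siRNA at DIV5 with BDNF (3 pairs). The share of all genes that passed with the block is not given, here or above, so these counts cannot be set against it. Such a share is also missing for the other alternatives counted here, above, or in the next paragraph, with a term, DESeq2, or libraries left out among them. The exceptions are the fits for which it was given above. Counts without a share cannot be set against all genes either. In hippocampus, P15 to P21 gave 1 with DESeq2, 1 when the 4 odd libraries (number 2 at P15 and P21) had their own term, and 3 without them, P10 to P21 gave 4 and 5, and P10 to P21 in controls gave 2 with DESeq2. Camk2b turned to 0.34 without these libraries, NM_007595.5 to 0.45 with the term and 0.44 without them, and XM_006514475.2 to 0.55 and 0.59. Relative to their gene, 2 transcripts passed with the replicate block, 7 with the term, and 6 without these libraries. The ratio difference by siRNA was -0.39 without libraries 10 and 11. The ratio rose by 0.68 (P10 to P15) and 1.13 (P10 to P21) without the libraries numbered 2, and with the replicate block by 1.62, 2.10, and 0.48 (P15 to P21), each at p = 0.125 by exact permutation, and differed by 0.31 between genotypes (exact permutation p = 0.0625). The cause of these differences was not tested.

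With 1 library left out, the number of genes was 0 to 1 for E15 to DIV3, 0 to 2 for siRNA at DIV5, 0 to 2 for siRNA at DIV10, 0 to 1 for siRNA at DIV5 with BDNF, 0 to 1 for BDNF with SC siRNA at DIV5, 0 to 2 for P10 to P15, 0 to 2 for P10 to P21 in controls, and 0 to 2 in S119A libraries. It was 2 to 3 for DIV3 to DIV5, for DIV5 to DIV10, and for P10 to P21, and 3 to 12 transcripts passed from P10 to P21. The ratio differences were 0.18 to 0.31 for BDNF, -0.46 to -0.33 for siRNA, 1.26 to 1.96 for P10 to P15, -0.0004 to 0.88 for P15 to P21, 1.62 to 2.50 for P10 to P21, and -0.01 to 0.56 for genotype. Hippocampus libraries of the same number correlated in their deviations at -0.19 to 0.08 with P10 and at 0.76 to 0.86 among P15 and P21. The numbers were therefore not taken as pairs over all ages, although they varied together at P15 and P21. No block could be fitted for E15 to DIV3, and leaving out libraries 10 and 11 removes both DIV10 cultures with paxillin siRNA and BDNF. Few reads limit Camk2g and the transcripts of Camk2d in hippocampus.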
